A study of Mus musculus with 24 samples.

Results

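The proteasome subunit genes were taken as the genes whose symbol is Psma, Psmb, Psmc or Psmd followed by a digit, which gave 40 of the 23235 genes in the table. Transcript levels had been measured by RNA sequencing of mouse oocytes and zygotes in 24 libraries, 2 in each of 12 groups, from 3 genotypes at 4 stages. The genotypes were Cnot6l-/-, mice with both alleles of Cnot6l disrupted, Btg4-/-, and WT, wild type. All animals were C57BL/6 at postnatal day 21. Germinal vesicle (GV) oocytes, still in prophase arrest, were collected 48 h after PMSG, the gonadotropin that stimulates follicle growth. Metaphase I (MI) and metaphase II (MII) oocytes were collected after 8 h and 16 h in culture, and zygotes 24 h after hCG, the gonadotropin that triggers ovulation. No further allele or agent distinguishes the groups, although the protocol mentions the MEK inhibitor U0126 for some experiments. The labels do not describe either allele, do not name a transgene or Cre, and do not say whether the 2 libraries of a group came from separate animals. All p-values here therefore measure the spread between libraries, which may be technical. One protocol gives 100 oocytes for a library, and the design text has the number 2 before the word oocytes without saying what it counts.

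The proteasome is the protease that degrades ubiquitin-tagged proteins. Its 20S core is a stack of rings made of alpha subunits, which gate the entrance, and beta subunits, some of which cut peptides. The 19S cap that feeds it has a base of ATPases, which unfold the substrate, and a lid that removes the ubiquitin chain. Proteasomes destroy cyclin B and securin when an oocyte leaves metaphase. Fully grown mouse oocytes hardly transcribe, so meiosis runs on stored messenger RNAs, and many of these are removed during maturation after their poly(A) tails are shortened. CNOT6L is a catalytic deadenylase of the CCR4-NOT complex, and BTG4 is an adaptor that brings this complex to messenger RNAs.

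The 40 genes fell into 7 alpha-ring genes, 7 constitutive beta-ring genes, 5 tissue-specific 20S genes, 6 base ATPases, 3 other base subunits, 8 lid subunits, 3 assembly factors of the 19S cap and Psmc3ip. Psmc3ip matches the symbol but encodes a partner of the meiotic recombinases and no proteasome subunit. Levels are FPKM, by its usual definition the number of fragments scaled to transcript length and to the fragments mapped in the library. Levels of different genes can thus be set side by side. Whether the deposited values follow this definition between libraries is not stated. The FPKM of all genes summed to between 49930 and 545784 per library, and the scaling of the libraries to each other is not stated in the sources used. The read depth behind each value is unknown. Each comparison was therefore also made after dividing every library by its median ratio to the other libraries, called median-ratio scaling below. The test was limma on log2(FPKM + 1), in which a gene was tested when at least 1 group averaged 1 FPKM, and called when its p-value, adjusted over the 10884 genes tested, was under 0.05. Changes are differences on this log2 scale, which understates the change of low genes. Of the 40 members 36 were tested. Where a comparison was refitted without a library, or with only the libraries compared, the count of members is given without the share of all genes. Such counts are not read as particular to the members.

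Oocyte markers summed to between 8321 and 9672 FPKM in the GV libraries of all genotypes, and cumulus markers to at most 28.3 FPKM in any library. The Cnot6l transcript was at 5.92 and 4.30 FPKM in Cnot6l-/- GV oocytes, against 73.9 and 24.1 FPKM in WT GV oocytes. The Btg4 transcript was at 1641 and 2515 FPKM in GV oocytes labelled Btg4-/-, against 2489.9 and 2120.3 FPKM in WT GV oocytes. The transcript level thus does not separate these libraries from WT, and they are called the libraries labelled Btg4-/- throughout. Neither value says whether protein was made. The 2 MI libraries of each genotype carry other numbers in the table than in their labels, so they are given as a pair.

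In GV oocytes proteasome transcripts were abundant in all 3 genotypes. Members summed to 6635 ± 195 FPKM in Cnot6l-/- GV oocytes, 6351 ± 1401 FPKM in GV oocytes labelled Btg4-/- and 6893 ± 865 FPKM in WT GV oocytes (SD, n = 2 each). These sums were 1.38 ± 0.09%, 1.31 ± 0.05% and 1.39 ± 0.01% of the FPKM of all genes in the same 3 groups. The highest mean levels in each genotype were those of the alpha-ring subunits Psma2 and Psma7. Psma2 had 873 and 706 FPKM in Cnot6l-/-, 545 and 800.5 FPKM in labelled Btg4-/- and 1061 and 711 FPKM in WT. Psma7, named after its values were seen, had 675 and 686 FPKM in Cnot6l-/-, 753 and 1019 FPKM in labelled Btg4-/- and 838 and 721 FPKM in WT. Libraries of WT overlapped with those of each knockout for Psma2, and those of labelled Btg4-/- with WT for Psma7.

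The roles stood at different levels. In WT GV oocytes the alpha ring summed to 2719 ± 544 FPKM over 7 genes and the constitutive beta ring to 2052 ± 282 FPKM over 7 (SD, n = 2). The 6 base ATPases summed to 824 ± 23.0 FPKM and the 8 lid genes to 646 ± 34.1 FPKM in the same oocytes. The catalytic beta subunits were all present. Psmb5, which carries the chymotrypsin-like activity, had 120.5 and 155 FPKM in Cnot6l-/-, 111 and 132 FPKM in labelled Btg4-/- and 99.2 and 98.9 FPKM in WT. Psmb6, with the caspase-like activity, had 352 and 331 FPKM in Cnot6l-/-, 285 and 352 FPKM in labelled Btg4-/- and 375 and 314 FPKM in WT. Psmb7, with the trypsin-like activity, had 292 and 289.5 FPKM in Cnot6l-/-, 245 and 357 FPKM in labelled Btg4-/- and 339 and 329 FPKM in WT. Each of these lay below Psma2 in every GV library. At the other end, the lid gene Psmd13 had 4.12 and 5.90 FPKM in Cnot6l-/-, 3.61 and 3.75 FPKM in labelled Btg4-/- and 2.99 and 2.99 FPKM in WT, so subunits of 1 complex differed widely in transcript level.

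Tissue-specific subunits were near 0. Psmb8, Psmb9 and Psmb10 replace the catalytic subunits in the immunoproteasome, Psmb11 does so in the thymus and Psma8 is a testis alpha subunit. No library held more than 1.19 FPKM of any of them. Psmb11 alone passed the filter, through the MI oocytes labelled Btg4-/- only. At GV it had 0.53 and 0.62 FPKM in Cnot6l-/-, 0.97 and 0.99 FPKM in labelled Btg4-/- and 0.97 and 0.65 FPKM in WT. The 4 others were not tested.

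No member was called between either knockout and WT at GV. In the limma test 0 of 36 were called in Cnot6l-/-, with 1 at an unadjusted p under 0.05, where 6.06% of all genes tested were higher and 3.02% lower. That gene was Psmd13, with a difference of 0.57 ± 0.22 (SE). In the libraries labelled Btg4-/- 0 of 36 were called, with 0 at an unadjusted p under 0.05, where 6.10% of all genes tested were higher and 1.33% lower. The medians of the members' differences were -0.03 in Cnot6l-/- and -0.11 in labelled Btg4-/-. A blood marker did differ at this stage. H2-Aa, the main part of the blood list, was at 7.61 and 4.11 FPKM in Cnot6l-/-, 5.78 and 9.85 FPKM in labelled Btg4-/- and 78.0 and 67.5 FPKM in WT. Laptm5, the next highest of the list, was at 0.96 and 1.24 FPKM in Cnot6l-/-, 0.82 and 1.54 FPKM in labelled Btg4-/- and 0.84 and 1.02 FPKM in WT. The part of H2-Aa in the results was not tested.

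**Figure D1:**
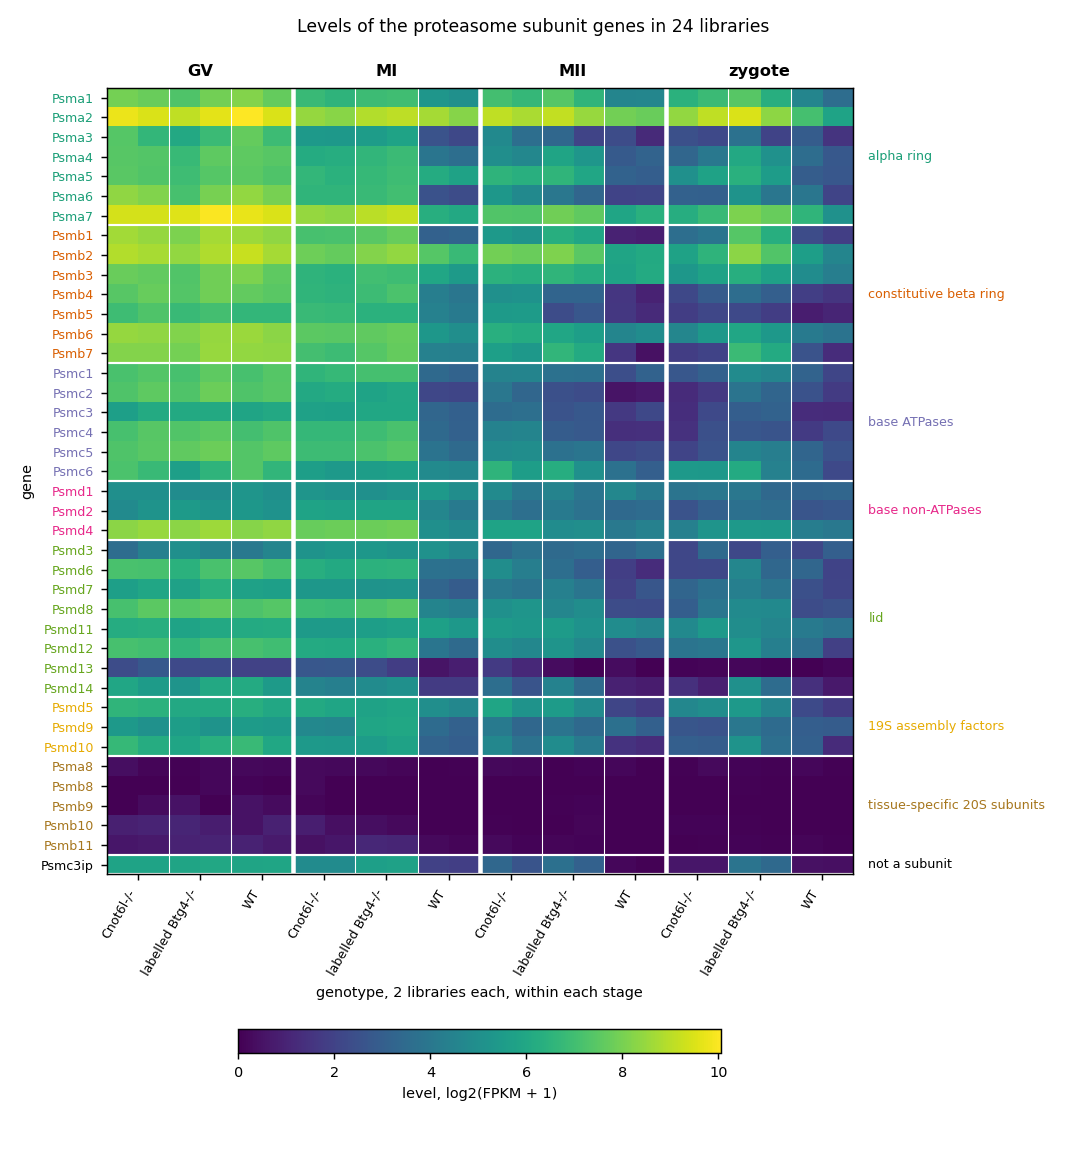
Levels of the proteasome subunit genes in every library, as a heat map of log2(FPKM + 1), with genes grouped by role down the page and the stages GV, MI, MII and zygote from left to right. Within each stage the 2 Cnot6l-/- libraries come first, then the 2 labelled Btg4-/- and the 2 WT; most rows are brightest at GV and darkest in WT MII eggs and zygotes, and the tissue-specific rows are dark throughout.

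The 3' ends of the transcripts were read because deadenylation and its reversal act there. A cytoplasmic polyadenylation element (CPE) is the site through which CPEB lengthens or shortens the tail of a stored messenger RNA, and the polyadenylation signal lies near the end. A CPE was searched as TTTTAT or TTTTAAT on the transcript strand, and a signal as AATAAA or ATTAAA in the last 50 bases. The longer CPE motif can overlap the signal. A 3' UTR of at least 50 bases whose end lay within 100 bases of the end in the table was found for 29 of the 36 members tested. Their median length was 294 bases, against 814 bases for the 8866 genes tested that had one. A signal stood in 27 of the 29, or 93.1%, against 80.8% of all these genes, and a CPE anywhere in the UTR in 11, or 37.9%, against 56.7%. A shorter UTR has fewer places for a CPE, and these shares were not matched for length. A CPE within 100 bases of the signal stood in 3 of the 29, or 10.3%, against 19.03% of all. These 3 were Psma1, Psma5 and Psmb3. Their sites are printed first below, followed by the signals of 4 genes with large changes and no CPE within 100 bases of the signal, Psma6, Psmb1, Psmb7 and Psmc2. Coordinates are of mm9, and the sequence is of that reference genome as given by its annotation (GENCODE vM1). Capitals mark the CPE or the signal nearest the end. Other matches to the signal, as in Psmb7, are left in lower case. In Psmb3 the capitals run over both motifs, which overlap.

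Psma1 CPE, chr7:121408173-121408202, minus strand: ctataccaatgtTTTTATatgaagaaaata
Psma1 signal, chr7:121408136-121408165, minus strand: ttgcagttttaaagacaactgtgaAATAAA
Psma5 CPE, chr3:108082828-108082857, plus strand: gtgtgtgtgtttTTTTATgaagtctgtaca
Psma5 signal, chr3:108082849-108082878, plus strand: gtctgtacataacagcaattctgaAATAAA
Psmb3 CPE and signal, chr11:97574771-97574800, plus strand: catctcccttttgtttttctTTTTAATAAA
Psma6 signal, chr12:56519396-56519425, plus strand: actgactggttaggactctgtataAATAAA
Psmb1 signal, chr17:15612694-15612723, minus strand: cacatacaaatgtatgtaatgaaaAATAAA
Psmb7 signal, chr2:38443571-38443600, minus strand: gcaattgctcaattaaaataaataAATAAA
Psmc2 signal, chr5:21309560-21309589, plus strand: tgtaacttgttgccaccgcacaaaAATAAA

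The 3 genes with a CPE near the signal had a median WT change of -2.09 at MI relative to GV, against -3.37 for the 26 without. Their range, -2.78 to -1.42, lay inside the range of the others. This is a description of 3 genes chosen by their letters, with no test, and a match is not shown to be a working site.

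Between GV and MI most proteasome transcripts fell in WT. In the limma test 33 of 36 members were lower at MI and 0 higher, where 65.1% of all genes tested were lower and 0.753% higher. The members' median change was -3.09 on the log2 scale, against -0.95 for all genes. Members summed to 1162 ± 227 FPKM in WT MI oocytes, against 6893 ± 865 FPKM in WT GV oocytes (SD, n = 2 each), and their share of all FPKM was 0.73 ± 0.02% at MI, against 1.39 ± 0.01% at GV. In bulk samples fewer cells and less RNA per cell cannot be told apart. Whether the length of the poly(A) tail affected the measured levels was not tested, here or at later stages. After median-ratio scaling, which moved the median of all genes to -0.16, 26 of 35 members were lower and 3 higher, against 30.5% lower and 15.2% higher among all genes tested. The members' median was then -2.04. The 3 higher after scaling were Psmd1, Psmd3 and Psmd11. Oocyte markers summed to between 4437 and 6560 FPKM in WT MI oocytes, against 9016 to 9460 FPKM in WT GV oocytes.

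The fall ran through all parts of the core. All 7 alpha-ring and all 7 constitutive beta-ring genes were lower in WT at MI. Psma6, an alpha-ring gene, had 4.72 and 4.04 FPKM in WT MI oocytes, against 339 and 254 FPKM in WT GV oocytes, a change of -5.78 ± 0.49 (SE; limma adjusted p = 3.18e-08). The libraries of the stages lay far apart, and no other member changed as much here. Psma3, another alpha-ring gene, had 4.99 and 3.59 FPKM at MI, against 206 and 119 FPKM at GV, a change of -4.91 ± 0.61 (SE; limma adjusted p = 2.36e-06); an antisense gene overlaps it and the library kit does not mark strand. Psma2 had 411 and 297 FPKM in WT MI oocytes, against 1061 and 711 FPKM in WT GV oocytes. It fell the least of its ring, at -1.31 ± 0.43 (SE, limma adjusted p = 0.0133). This call was lost without WT GV library 1 (adjusted p = 0.122), without one of the MI libraries (adjusted p = 0.106) and after scaling, where the change was -0.05 (adjusted p = 0.898).

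Among the beta subunits, Psmb1, a non-catalytic one, had 7.70 and 8.39 FPKM in WT MI oocytes, against 385 and 331 FPKM in WT GV oocytes, a change of -5.31 ± 0.33 (SE; limma adjusted p = 1.37e-09). The catalytic subunits fell too, each with groups that did not overlap. Psmb7 had 20.2 and 19.6 FPKM at MI, against 339 and 329 FPKM at GV, or -4.003 ± 0.41 (SE; limma adjusted p = 2.39e-07). Psmb6 had 38.7 and 30.1 FPKM at MI, against 375 and 314 FPKM at GV, or -3.29 ± 0.29 (SE; limma adjusted p = 5.63e-08). Psmb5 had 20.5 and 16.1 FPKM at MI, against 99.2 and 98.9 FPKM at GV, or -2.38 ± 0.25 (SE; limma adjusted p = 4.08e-07); a microRNA gene lies within it on the same strand. Of the non-catalytic Psmb3, 61.3 and 43.9 FPKM were left at MI, against 269 and 186 FPKM at GV, or -2.09 ± 0.31 (SE; limma adjusted p = 1.86e-05).

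In the 19S cap the ATPases all fell, and of 14 other genes 11 fell. All 6 ATPase genes, 2 of 3 other base subunits, 6 of 8 lid genes and all 3 assembly factors were lower in WT at MI. The ATPase Psmc2 had 3.45 and 3.24 FPKM in WT MI oocytes, against 155 and 173 FPKM in WT GV oocytes, a change of -5.25 ± 0.31 (SE; limma adjusted p = 8.91e-10), and Psmc6, with 27.4 and 24.1 FPKM at MI against 165 and 96.1 FPKM at GV, changed by -2.25 ± 0.56 (SE; limma adjusted p = 0.00201). The ubiquitin receptor Psmd4 had 31.1 and 26.6 FPKM at MI, against 302 and 337 FPKM at GV, or -3.43 ± 0.27 (SE; limma adjusted p = 1.6e-08). Psmd14, the deubiquitinase of the lid, had 2.33 and 2.40 FPKM at MI, against 69.5 and 43.2 FPKM at GV, or -4.05 ± 0.47 (SE; limma adjusted p = 1.13e-06). The stages did not overlap for any of these genes. After scaling Psmc6 was not called, at -1.01 (adjusted p = 0.052).

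Psmd1, Psmd3 and Psmd11 were not called in the values as deposited. Psmd1, a large scaffold subunit of the base, had 42.8 and 29.8 FPKM in WT MI oocytes, against 36.6 and 31.4 FPKM in WT GV oocytes, a difference of 0.07 ± 0.31 (SE; limma adjusted p = 0.849). Psmd3, a lid scaffold subunit, had 33.0 and 25.1 FPKM at MI, against 15.7 and 22.7 FPKM at GV, or 0.59 ± 0.42 (SE; limma adjusted p = 0.232). Psmd11, another lid scaffold, had 52.2 and 40.1 FPKM at MI, against 69.2 and 71.3 FPKM at GV, or -0.61 ± 0.27 (SE; limma adjusted p = 0.0542). The libraries of the stages overlapped for Psmd1 only, and after scaling these differences were 1.29, 1.76 and 0.63 for Psmd1, Psmd3 and Psmd11, all called as higher at MI. A gene on the opposite strand overlaps Psmd1. Without one of the WT MI libraries Psmd11 was called as lower (adjusted p = 0.0459), and the sign of Psmd1 depended on the library left out, from -0.18 to 0.33 without one or the other MI library.

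The lid gene Psmd6 had 12.6 and 12.2 FPKM in WT MI oocytes, against 172 and 139 FPKM in WT GV oocytes, a change of -3.54 ± 0.43 (SE; limma adjusted p = 1.98e-06). Among the assembly factors, which chaperone the base and do not stay in the finished particle, Psmd10 (gankyrin) had 8.09 and 7.10 FPKM at MI, against 111 and 63.1 FPKM at GV, or -3.31 ± 0.53 (SE; limma adjusted p = 3.66e-05). Psmd9 had 10.4 and 7.71 FPKM at MI, against 45.1 and 42.8 FPKM at GV, or -2.17 ± 0.30 (SE; limma adjusted p = 7.44e-06). All 3 fell by more than the spread between libraries. Psmc3ip, the non-subunit, fell as well, with 2.89 and 2.65 FPKM at MI, against 58.1 and 59.4 FPKM at GV, or -3.99 ± 0.25 (SE; limma adjusted p = 1.5e-09); it overlaps a gene on the opposite strand.

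From MI to MII fewer members were called in WT. Of 36 members 18 were lower at MII and 0 higher, where 32.6% of all genes tested were lower and 0.340% higher, and the median was -0.98 for members and -0.44 for all genes. After scaling 13 of 35 were lower and 2 higher, against 25.1% lower and 5.64% higher among all genes tested. Psmb3 and Psmd9 were the higher ones, a share close to that of all genes. Psmb7 had 2.02 and 0.38 FPKM in WT MII eggs, a change from MI of -3.36 ± 0.41 (SE; limma adjusted p = 1.13e-05), and Psmb1 had 0.94 and 0.81 FPKM, or -2.27 ± 0.33 (SE; limma adjusted p = 6.01e-05). Psmb5 had 2.11 and 1.30 FPKM and changed by -2.84 ± 0.25 (SE; limma adjusted p = 1e-06). Psmb6, in contrast, had 23.0 and 28.8 FPKM at MII, and its difference from MI was -0.39 ± 0.29 (SE; limma adjusted p = 0.347). Psmb3 held 54.5 and 69.7 FPKM at MII.

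Relative to GV, 35 of 36 members were lower in WT MII eggs and 0 higher, where 83.4% of all genes tested were lower and 0.0551% higher. The members' median was -4.29, against -1.37 for all genes. After scaling the counts were 28 lower and 1 higher of 35, against 43.2% lower and 14.9% higher among all genes tested. The higher one was Psmd1, and the medians were -2.53 for members and -0.37 for all genes. The gene with the largest fall to MII was Psmb1, at -7.58 ± 0.33 (SE; limma adjusted p = 1e-11). Psmd3, with 8.69 and 11.8 FPKM at MII, was the member not called, at -0.84 ± 0.42 (SE; limma adjusted p = 0.0762). The other genes with the lowest and highest changes of their roles stood at MII as follows. Psma6 had 3.02 and 3.32 FPKM and Psma2 242 and 216 FPKM. Psmc2 had 0.46 and 0.62 FPKM and Psmc6 12.3 and 7.21 FPKM, so ATPases of 1 ring ended far apart. Psmd4 had 15.5 and 20.4 FPKM and Psmd1 24.1 and 16.9 FPKM in the same eggs. In the lid, Psmd6 had 2.61 and 1.43 FPKM, Psmd14 0.89 and 0.69 FPKM and Psmd11 28.3 and 22.8 FPKM, the last being the highest of the 3. Psmd10 had 1.80 and 1.43 FPKM, Psmd9 12.2 and 7.48 FPKM, Psma3 4 and 1.31 FPKM, Psmb11 0.01 and 0.01 FPKM and Psmc3ip 0.13 and 0.04 FPKM.

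WT zygotes differed little from WT MII eggs in the values as deposited. The MII oocytes were collected after culture and the zygotes after hCG, so stage and way of collection cannot be told apart in this step. Of 36 members 2 were higher, Psmc2 and Psmb1, and 2 lower, Psmb3 and Psmd1, where 1.04% of all genes tested were higher and 3.22% lower. Psmc2 had 4.74 and 2.37 FPKM in WT zygotes, against 0.46 and 0.62 FPKM in WT MII eggs, or 1.52 ± 0.31 (SE; limma adjusted p = 0.00823), and Psmb1 had 4.12 and 2.62 FPKM, against 0.94 and 0.81 FPKM, or 1.2 ± 0.33 (SE; limma adjusted p = 0.0471). Psmb3 had 28.9 and 18.9 FPKM in zygotes, against 54.5 and 69.7 FPKM in MII eggs, or -1.36 ± 0.31 (SE; limma adjusted p = 0.0183). After scaling 11 of 35 were higher and 3 lower, against 15.0% higher and 4.86% lower among all genes tested. The call count was 0 without WT MII library 1, 0 without WT MII library 2 and 2 without WT zygote library 1. Without these libraries Psmc2 had an adjusted p of 0.0708, 0.0621 and 0.114, and Psmb1 of 0.15, 0.251 and 0.252. Psmb3 lost its call without either MII library (adjusted p = 0.0548 and 0.194) and without zygote library 2 (adjusted p = 0.12). Zygote library 1 was above library 2 in Psma6 with 14.3 and 3.19 FPKM, Psmb7 with 4.95 and 1.43 FPKM and Psmd6 with 8.84 and 3.07 FPKM.

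In Cnot6l-/- oocytes fewer members fell from GV to MI. In the limma test 12 of 36 members were lower at MI and 2 higher, where 15.0% of all genes tested were lower and 8.37% higher, and the members' median change was -0.94, against -0.14 for all genes. The 2 that rose were Psmd2 and Psmd3. Psmd2, the other large base scaffold, had 55.6 and 53.4 FPKM in Cnot6l-/- MI oocytes, against 27.0 and 34.4 FPKM in Cnot6l-/- GV oocytes, or 0.82 ± 0.26 (SE; limma adjusted p = 0.0323). Psmd3 had 34.5 and 38.8 FPKM, against 11.0 and 20.04 FPKM, or 1.24 ± 0.42 (SE; limma adjusted p = 0.0439). The count was 1 without GV library 1, 6 without GV library 2 and 0 without either MI library, and 29 when only these 4 libraries were fitted. Psmd2 and Psmd3 were not called without GV library 1 (adjusted p = 0.204 and 0.31) or without either MI library, and Psmd3 not after scaling (adjusted p = 0.0675). Psmd2 was named after its values were seen. The refits are given without their shares of all genes, so their counts are not read as particular to the members.

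In the oocytes labelled Btg4-/- a single member was called between GV and MI. It was Psmc2, with 56.3 and 64.1 FPKM at MI, against 154 and 222 FPKM at GV, or -1.61 ± 0.31 (SE; limma adjusted p = 0.0127), where 1.26% of all genes tested were lower and 0.404% higher. The call was lost without either MI library (adjusted p = 0.105 and 0.0635) and without GV library 2 (adjusted p = 0.0975). The members' median was -0.39, against -0.10 for all genes.

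**Figure D2:**
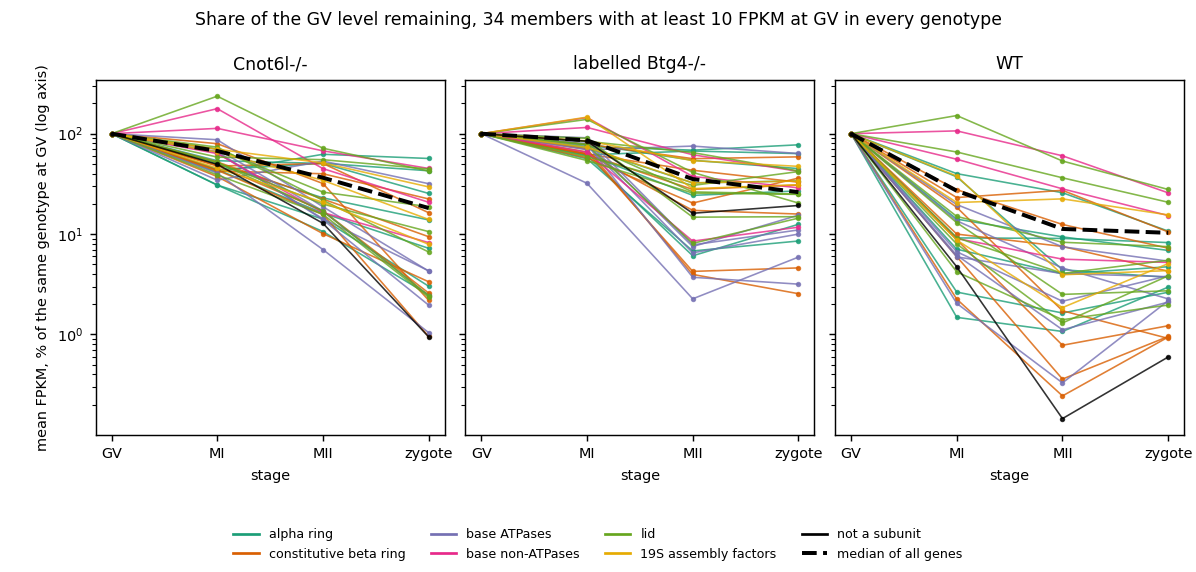
Share of the GV level that remained at each stage for the 34 members with at least 10 FPKM at GV in every genotype, in percent of the mean FPKM of the same genotype at GV on a log axis, with a panel per genotype, a line per gene coloured by role and a dashed line for the median of all genes at this level. The median member, for which no line is drawn, kept 51.7% at MI in Cnot6l-/-, 73.8% in labelled Btg4-/- and 9.59% in WT.

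Expressed as a share of the GV mean, the median of the 34 members with at least 10 FPKM at GV in every genotype was 51.7% at MI, 21.2% at MII and 8.07% in zygotes in Cnot6l-/-. In the libraries labelled Btg4-/- it was 73.8% at MI, 26.0% at MII and 26.0% in zygotes. In WT it was 9.59% at MI, 4.05% at MII and 4.29% in zygotes. The medians of all 3883 genes at this level, at MI, MII and in zygotes, were 67.3%, 36.4% and 18.2% in Cnot6l-/-. They were 85.9%, 35.3% and 26.2% in labelled Btg4-/-, and 27.0%, 11.2% and 10.3% in WT. The members' median lay below that of all genes at every stage after GV in each genotype, on values not rescaled.

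At MI most members were higher in Cnot6l-/- oocytes than in WT. In the limma test 29 of 36 were higher and 0 lower, where 60.3% of all genes tested were higher and 1.30% lower. The median difference was 2.38 for members and 0.87 for all genes. Members summed to 3372 ± 116 FPKM in Cnot6l-/- MI oocytes, against 1162 ± 227 FPKM in WT MI oocytes, and to 1.12 ± 0.01% of all FPKM against 0.73 ± 0.02% in WT (SD, n = 2 each). Higher were 5 of 7 alpha-ring genes, 6 of 7 beta-ring genes, 5 of 6 ATPases, 2 of 3 other base subunits, 6 of 8 lid genes and all 3 assembly factors. The others counted were Psmc3ip, which is no subunit, and Psmb11, which was under 1 FPKM in both groups. After scaling 24 of 35 were higher and 3, Psma2, Psmd1 and Psmd11, lower, against 35.8% higher and 11.0% lower among all genes tested. The medians were then 1.49 for members and 0.28 for all genes. Oocyte markers summed to between 8469 and 8530 FPKM in Cnot6l-/- MI oocytes, against 4437 to 6560 FPKM in WT MI oocytes, and sperm markers, 3 of 9 of them at 0 in each group, to between 71.0 and 71.1 FPKM against 18 to 23.6 FPKM. Blood markers summed to between 2.81 and 3.26 FPKM in Cnot6l-/- with 5 of 9 at 0, against 24.95 to 33.4 FPKM in WT with 4 of 9 at 0. Most of the WT blood sum was H2-Aa, at 32.6 and 24.1 FPKM, against 1.56 and 1.91 FPKM in Cnot6l-/-. Laptm5 went the other way, at 1.19 and 1.09 FPKM in Cnot6l-/- and 0.79 and 0.78 FPKM in WT. Most of the sperm sum in Cnot6l-/- was Odf2, at 34.6 and 37.6 FPKM, and Ldhc, at 29.1 and 26.1 FPKM. In WT these had 18.7 and 13.7 FPKM and 2.13 and 3.12 FPKM. The part of these lists in the members' difference was not tested.

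The libraries labelled Btg4-/- stood apart from WT at MI in a like number of members. There 31 of 36 were higher and 0 lower, where 68.7% of all genes tested were higher and 0.432% lower, with a median of 2.68 for members and 0.99 for all genes. Members summed to 4436 ± 334 FPKM in labelled Btg4-/- MI oocytes, 1.17 ± 0.04% of all FPKM (SD, n = 2). Higher were 6 of 7 alpha-ring genes, all 7 beta-ring genes, 5 of 6 ATPases, 2 of 3 other base subunits, 6 of 8 lid genes and all 3 assembly factors. The others counted were Psmc3ip and Psmb11, the second of which passed the filter through this group alone and had to be higher. After scaling 24 of 35 were higher and 3 lower, again Psma2, Psmd1 and Psmd11, against 32.5% higher and 9.82% lower among all genes tested. The medians were then 1.55 for members and 0.22 for all genes. Oocyte markers summed to between 8508 and 8648 FPKM in labelled Btg4-/- MI oocytes, against 4437 to 6560.4 FPKM in WT MI oocytes, and sperm markers, 3 of 9 at 0 in each group, to between 66.4 and 70.2 FPKM against 18 to 23.6 FPKM. Blood markers summed to between 20.2 and 28.4 FPKM in labelled Btg4-/- with 4 of 9 at 0, against 24.9 to 33.4 FPKM in WT. H2-Aa made up most of both sums, with 18.4 and 26.9 FPKM in labelled Btg4-/-. Odf2, at 39.4 and 38.9 FPKM, and Ldhc, at 16.8 and 12.45 FPKM, were most of the sperm sum in labelled Btg4-/-. The part of the marker lists in the members' difference was not tested. Both knockouts are set against the same WT libraries, so their values are given side by side and are not independent of each other.

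Psma6 had 95.2 and 93.8 FPKM in Cnot6l-/-, 110.2 and 128 FPKM in labelled Btg4-/- and 4.72 and 4.04 FPKM in WT. Its difference from WT was 4.15 ± 0.49 (SE; limma adjusted p = 1.58e-06) in Cnot6l-/- and 4.48 ± 0.49 (SE; limma adjusted p = 5.78e-07) in labelled Btg4-/-. Every knockout library was above both WT libraries. Psma3 had 42.4 and 39.9 FPKM in Cnot6l-/-, 46.5 and 55.6 FPKM in labelled Btg4-/- and 4.99 and 3.59 FPKM in WT, with differences of 3.01 ± 0.61 in Cnot6l-/- and 3.30 ± 0.61 in labelled Btg4-/- (SE), both called. Psma2 was not called in either knockout as deposited: it had 349.8 and 303 FPKM in Cnot6l-/-, 471 and 532 FPKM in labelled Btg4-/- and 411 and 297 FPKM in WT MI oocytes, differences of -0.10 ± 0.43 (SE; limma adjusted p = 0.858) in Cnot6l-/- and 0.52 ± 0.43 (SE; limma adjusted p = 0.289) in labelled Btg4-/-.

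Psmb1 had 138 and 144 FPKM in Cnot6l-/-, 179.6 and 210.2 FPKM in labelled Btg4-/- and 7.70 and 8.39 FPKM in WT, differences of 3.98 ± 0.33 (SE; limma adjusted p = 3.46e-08) in Cnot6l-/- and 4.43 ± 0.33 (SE; limma adjusted p = 9.37e-09) in labelled Btg4-/-. The catalytic subunits were all higher in both knockouts at this stage. Psmb5 had 112 and 107 FPKM in Cnot6l-/-, 85.6 and 85.3 FPKM in labelled Btg4-/- and 20.5 and 16.1 FPKM in WT, with differences of 2.53 ± 0.25 in Cnot6l-/- and 2.17 ± 0.25 in labelled Btg4-/- (SE). Psmb6 had 181 and 176 FPKM in Cnot6l-/-, 193 and 209.6 FPKM in labelled Btg4-/- and 38.7 and 30.1 FPKM in WT, with differences of 2.35 ± 0.29 in Cnot6l-/- and 2.52 ± 0.29 in labelled Btg4-/- (SE). Psmb7 had 132 and 119 FPKM in Cnot6l-/-, 169.7 and 205 FPKM in labelled Btg4-/- and 20.2 and 19.6 FPKM in WT, with differences of 2.60 ± 0.41 in Cnot6l-/- and 3.17 ± 0.41 in labelled Btg4-/- (SE). No knockout library of Psmb5, Psmb6 or Psmb7 overlapped WT. Psmb3 had 91.6 and 84.1 FPKM in Cnot6l-/-, 127 and 120.5 FPKM in labelled Btg4-/- and 61.3 and 43.9 FPKM in WT, with 0.75 ± 0.31 (SE; limma adjusted p = 0.0467) in Cnot6l-/- and 1.24 ± 0.31 (SE; limma adjusted p = 0.00213) in labelled Btg4-/-, and after scaling with -0.18 in Cnot6l-/- and 0.03 in labelled Btg4-/-, neither called. Its call in Cnot6l-/- was also lost without either Cnot6l-/- MI library (adjusted p = 0.163 and 0.104) and without one of the WT MI libraries (adjusted p = 0.298). Psmb11, the thymus subunit, had 0.35 and 0.54 FPKM in Cnot6l-/-, 1.19 and 1.04 FPKM in labelled Btg4-/- and 0.19 and 0.10 FPKM in WT.

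Among the ATPases Psmc2 had 65.9 and 72.3 FPKM in Cnot6l-/-, 56.3 and 64.1 FPKM in labelled Btg4-/- and 3.45 and 3.24 FPKM in WT, with differences of 4.01 ± 0.31 (SE; limma adjusted p = 1.75e-08) in Cnot6l-/- and 3.81 ± 0.31 (SE; limma adjusted p = 2.09e-08) in labelled Btg4-/-. Psmc6 was the ATPase not called in either knockout in the values as deposited, with 48.2 and 41.3 FPKM in Cnot6l-/-, 47.4 and 51.0 FPKM in labelled Btg4-/- and 27.4 and 24.1 FPKM in WT and differences of 0.77 ± 0.56 (SE; limma adjusted p = 0.243) in Cnot6l-/- and 0.91 ± 0.56 (SE; limma adjusted p = 0.154) in labelled Btg4-/-. The ubiquitin receptor Psmd4 had 208 and 222 FPKM in Cnot6l-/-, 221 and 232 FPKM in labelled Btg4-/- and 31.1 and 26.6 FPKM in WT. The receptor's difference from WT was 2.86 ± 0.27 (SE; limma adjusted p = 1.57e-07) in Cnot6l-/- and 2.93 ± 0.27 (SE; limma adjusted p = 1.01e-07) in labelled Btg4-/-. The scaffold Psmd1 had 36.4 and 34.2 FPKM in Cnot6l-/-, 31.6 and 35.5 FPKM in labelled Btg4-/- and 42.8 and 29.8 FPKM in WT, overlapping between the genotypes, with differences of -0.02 ± 0.31 in Cnot6l-/- and -0.09 ± 0.31 in labelled Btg4-/- (SE).

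In the lid, the deubiquitinase Psmd14 had 21.5 and 19.3 FPKM in Cnot6l-/-, 28.2 and 31.8 FPKM in labelled Btg4-/- and 2.33 and 2.40 FPKM in WT at MI, with differences of 2.67 ± 0.47 (SE; limma adjusted p = 0.000102) in Cnot6l-/- and 3.20 ± 0.47 (SE; limma adjusted p = 1.44e-05) in labelled Btg4-/-. Psmd6 had 77.6 and 68.6 FPKM in Cnot6l-/-, 86.2 and 90.5 FPKM in labelled Btg4-/- and 12.6 and 12.2 FPKM in WT, again with both knockouts above WT. The lid scaffolds showed less: Psmd3 had 34.5 and 38.8 FPKM in Cnot6l-/-, 38.5 and 34.5 FPKM in labelled Btg4-/- and 33.0 and 25.1 FPKM in WT, with differences of 0.34 ± 0.42 (SE; limma adjusted p = 0.52) in Cnot6l-/- and 0.33 ± 0.42 (SE; limma adjusted p = 0.494) in labelled Btg4-/-. Psmd11 had 44.0 and 44.1 FPKM in Cnot6l-/-, 49.0 and 53.3 FPKM in labelled Btg4-/- and 52.2 and 40.1 FPKM in WT, with differences of -0.05 ± 0.27 (SE; limma adjusted p = 0.885) in Cnot6l-/- and 0.16 ± 0.27 (SE; limma adjusted p = 0.603) in labelled Btg4-/-. Neither gene was called as deposited in either knockout. The assembly factor Psmd9 had 25.1 and 23.5 FPKM in Cnot6l-/-, 58.7 and 61.7 FPKM in labelled Btg4-/- and 10.4 and 7.71 FPKM in WT, and Psmd10 had 41.1 and 39.9 FPKM in Cnot6l-/-, 46.7 and 54.7 FPKM in labelled Btg4-/- and 8.09 and 7.10 FPKM in WT. Both were called in both knockouts. Psmc3ip had 27.8 and 27.8 FPKM in Cnot6l-/-, 50.1 and 52.4 FPKM in labelled Btg4-/- and 2.89 and 2.65 FPKM in WT, with no overlap between any knockout library and WT.

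**Figure D3:**
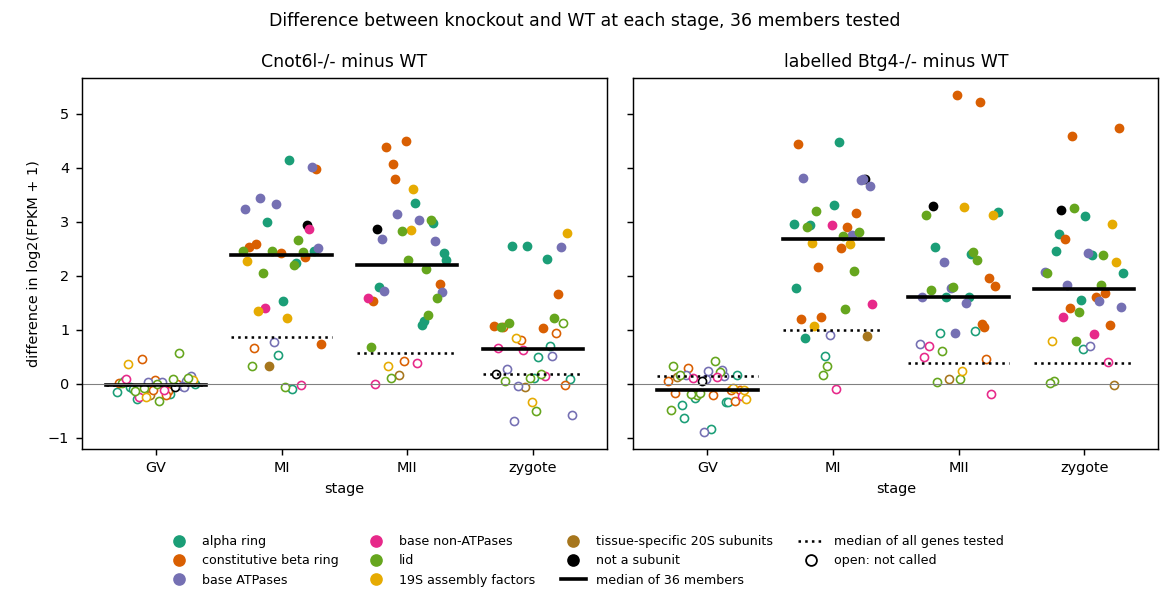
Difference in log2(FPKM + 1) between knockout and WT for the 36 members tested, at GV, MI, MII and in zygotes, with Cnot6l-/- on the left and the libraries labelled Btg4-/- on the right; each point is a gene, coloured by role and filled when called, the thick bar is the members' median and the dotted bar that of all genes tested. Points scatter about 0 at GV, and the medians are 2.38 at MI and 0.64 in zygotes in Cnot6l-/- and 2.68 at MI and 1.76 in zygotes in labelled Btg4-/-.

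Whether the change from GV to MI itself differed between knockout and WT was tested by an interaction term, the change in the knockout minus the change in WT. In Cnot6l-/- 27 of 36 members had a positive interaction and 0 a negative one, where 44.4% of all genes tested were higher and 0.459% lower. Psmb11 and the non-subunit Psmc3ip are among the 27. Psmb11 passed the filter through the MI oocytes labelled Btg4-/- alone and was under 1 FPKM in every library used here. The median was 2.38 for members and 0.84 for all genes. After scaling the counts were 20 positive and 1 negative of 35, against 18.7% higher and 2.52% lower among all genes tested. The negative one was Psmd11. The largest interactions were those of Psma6, 4.09 ± 0.69 (SE; limma adjusted p = 0.000179), Psmc2, 3.96 ± 0.43 (SE; limma adjusted p = 4.47e-06), and Psmb1, 3.90 ± 0.46 (SE; limma adjusted p = 9.11e-06). The smallest were those of Psmd11, -0.15 ± 0.38 (SE; limma adjusted p = 0.764), Psma2, 0.04 ± 0.61 (SE; limma adjusted p = 0.966), and Psmd1, 0.10 ± 0.43 (SE; limma adjusted p = 0.873). The 3 largest are an alpha subunit, an ATPase and a beta subunit, and none of the 3 smallest was called.

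In the libraries labelled Btg4-/- 29 of 36 members had a positive interaction between GV and MI and 0 a negative one, where 45.4% of all genes tested were higher and 0.175% lower. Psmb11 is among the 29, and it passed the filter through the MI oocytes labelled Btg4-/- alone. The median was 2.73 for members and 0.88 for all genes. After scaling 22 of 35 were positive and 1, Psmd1, negative, against 18.2% higher and 4.72% lower among all genes tested. The largest were those of Psma6, 5.12 ± 0.69 (SE; limma adjusted p = 2.3e-05), Psmb1, 4.54 ± 0.46 (SE; limma adjusted p = 1.87e-06), and Psma3, 4.14 ± 0.86 (SE; limma adjusted p = 0.000891). The smallest were those of Psmd3, -0.10 ± 0.60 (SE; limma adjusted p = 0.901), Psmd1, 0.13 ± 0.43 (SE; limma adjusted p = 0.83), and Psmd11, 0.37 ± 0.38 (SE; limma adjusted p = 0.447). Psma6 and Psmb1 were thus among the 3 largest, and Psmd1 and Psmd11 among the 3 smallest, in both knockouts, which share the WT libraries.

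**Figure D4:**
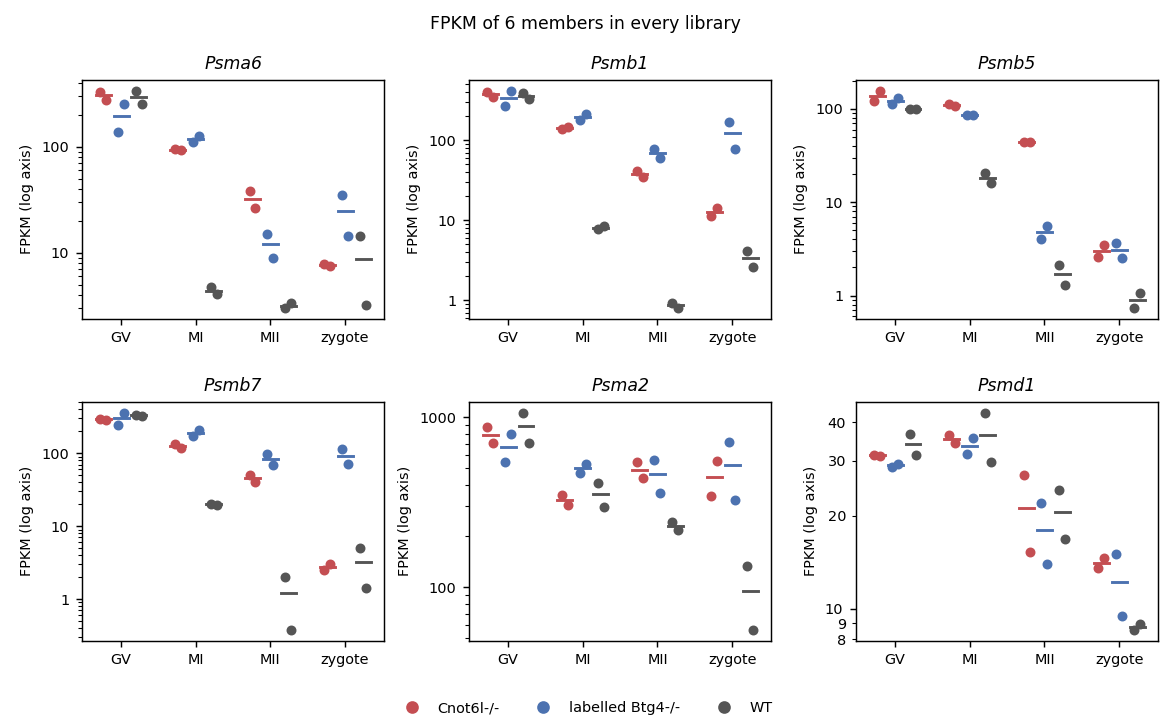
FPKM on a log axis of 6 members in every library at GV, MI, MII and in zygotes, with a point per library and a bar at the mean of 2; Cnot6l-/- stands left, labelled Btg4-/- in the middle and WT right. Psma6, Psmb1, Psmb5 and Psmb7 drop in WT by MI while the knockouts stay higher, whereas the genotypes overlap or lie close for Psma2 and Psmd1 at MI.

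In MII eggs most members were lower than at MI in both knockouts, in labelled Btg4-/- at a share close to that of all genes, and most stood above WT. In Cnot6l-/- 26 of 36 members were lower at MII than at MI and 0 higher, where 54.3% of all genes tested were lower and 0.230% higher, with a median of -1.32 for members and -0.74 for all genes. That count was 17 without Cnot6l-/- MII library 2. After scaling 7 of 35 were higher and 11 lower, against 6.41% higher and 26.8% lower among all genes tested. In labelled Btg4-/- 26 of 36 were lower and 0 higher, where 69.3% of all genes tested were lower and 0.110% higher, with a median of -1.61 for members and -0.997 for all genes. Psmb11 passed the filter through the MI oocytes labelled Btg4-/- alone, so it had to be lower here and its part in this count is no result. After scaling 7 were higher and 17 lower, against 5.31% higher and 30.6% lower among all genes tested. The 7 genes that stood higher at MII after scaling were Psma1, Psma2, Psma5, Psmb2, Psmb3, Psmc6 and Psmd11 in each knockout. Among the 7 were all 3 genes with a CPE near the signal, which is given as a count with no test. Of the 7, Psma2 and Psmc6 had no 3' UTR that met the criteria and Psmd11 had no signal, so these could not be counted. The same share was not computed over all genes, so the count is not read as a link.

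Against WT, 30 of 36 members were higher in Cnot6l-/- MII eggs and 0 lower, where 44.3% of all genes tested were higher and 0.671% lower, and the median was 2.21 for members and 0.56 for all genes. After scaling 27 of 35 were higher and 1, Psmd1, lower, against 34.3% higher and 8.69% lower among all genes tested. As deposited, those higher were all 7 alpha-ring genes, 6 of 7 beta-ring genes, all 6 ATPases, 1 of 3 other base subunits, 7 of 8 lid genes and 2 of 3 assembly factors. In labelled Btg4-/- MII eggs 24 of 36 were higher and 0 lower, where 28.3% of all genes tested were higher and 0.340% lower, with a median of 1.61 for members and 0.38 for all genes. After scaling 20 were higher and 1, again Psmd1, lower, against 21.8% higher and 6.55% lower among all genes tested. As deposited, those higher were 5 of 7 alpha-ring genes, 6 of 7 beta-ring genes, 5 of 6 ATPases, 0 of 3 other base subunits, 5 of 8 lid genes and 2 of 3 assembly factors. Members were 1.04 ± 0.07% of all FPKM in Cnot6l-/-, 1.11 ± 0.03% in labelled Btg4-/- and 0.65 ± 0.03% in WT MII eggs (SD, n = 2 each). Blood markers summed to between 2.42 and 6.13 FPKM in the knockout MII eggs, against 11.9 to 14.5 FPKM in WT MII eggs. Most of the WT sum was H2-Aa, at 11.6 and 14.1 FPKM. H2-Aa had 1.93 and 1.87 FPKM in Cnot6l-/- and 3.66 and 2.72 FPKM in labelled Btg4-/- MII eggs.

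The change from GV to MII differed from that of WT in 26 of 36 members in Cnot6l-/-, all positive, where 24.1% of all genes tested were higher and 0.717% lower. In labelled Btg4-/- it differed in 19, all positive, where 13.3% of all genes tested were higher and 0.579% lower, and in 11 without labelled Btg4-/- GV library 1 or without its MII library 1. After scaling 18 of 35 were positive and 0 negative in Cnot6l-/-, against 15.0% higher and 0.733% lower among all genes tested. In labelled Btg4-/- 0 were negative and 17 positive, against 12.4% higher and 2.38% lower among all genes tested.

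Psmb7 had 50.5 and 40.5 FPKM in Cnot6l-/-, 98.2 and 69.5 FPKM in labelled Btg4-/- and 2.02 and 0.38 FPKM in WT at MII, with differences from WT of 4.502 ± 0.41 (SE; limma adjusted p = 2.6e-07) in Cnot6l-/- and 5.36 ± 0.41 (SE; limma adjusted p = 1.76e-07) in labelled Btg4-/-. Psmb5 had 43.6 and 44.3 FPKM in Cnot6l-/-, 4.02 and 5.61 FPKM in labelled Btg4-/- and 2.11 and 1.30 FPKM in WT, with 4.07 ± 0.25 (SE; limma adjusted p = 1.67e-08) in Cnot6l-/- and 1.11 ± 0.25 (SE; limma adjusted p = 0.00306) in labelled Btg4-/-. For Psmb7 both knockouts lay far above WT, and for Psmb5 Cnot6l-/- lay far above the other groups. The call of Psmb5 in labelled Btg4-/- was lost without WT MII library 2 (adjusted p = 0.0539) and after scaling, at 0.64 (adjusted p = 0.127). Psmb1 had 41.2 and 35.1 FPKM in Cnot6l-/-, 77.3 and 60.7 FPKM in labelled Btg4-/- and 0.94 and 0.81 FPKM in WT, and Psmb6 had 81.0 and 71.4 FPKM in Cnot6l-/-, 60.98 and 48.6 FPKM in labelled Btg4-/- and 23.0 and 28.8 FPKM in WT. Psmb3 had 86.2 and 79.0 FPKM in Cnot6l-/-, 93.7 and 76.8 FPKM in labelled Btg4-/- and 54.5 and 69.7 FPKM in WT, which differed from WT by 0.42 ± 0.31 in Cnot6l-/- and 0.46 ± 0.31 in labelled Btg4-/- (SE) and was called in neither.

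In the alpha ring at MII, Psma6 had 38.7 and 26.2 FPKM in Cnot6l-/-, 15.0 and 8.99 FPKM in labelled Btg4-/- and 3.02 and 3.32 FPKM in WT. Psma2 had 544 and 441 FPKM in Cnot6l-/-, 562 and 361 FPKM in labelled Btg4-/- and 242 and 216 FPKM in WT, with differences of 1.096 ± 0.43 (SE; limma adjusted p = 0.0472) in Cnot6l-/- and 0.98 ± 0.43 (SE; limma adjusted p = 0.105) in labelled Btg4-/-. For both genes every knockout library was above WT. The call of Psma2 in Cnot6l-/- was lost after scaling, at 0.27, and without any 1 library. Its adjusted p was 0.218 without Cnot6l-/- library 1, 0.0742 without its library 2, 0.108 without WT library 1 and 0.167 without WT library 2. Psma3 had 26.4 and 11.3 FPKM in Cnot6l-/-, 9.16 and 3.16 FPKM in labelled Btg4-/- and 4 and 1.31 FPKM in WT, and its libraries of labelled Btg4-/- and WT overlapped. Psma5, given because it has a CPE near its signal, had 91.5 and 80.2 FPKM in Cnot6l-/-, 94.7 and 61.5 FPKM in labelled Btg4-/- and 7.87 and 7.10 FPKM in WT, with differences of 3.35 ± 0.33 (SE; limma adjusted p = 6.3e-07) in Cnot6l-/- and 3.19 ± 0.33 (SE; limma adjusted p = 2.83e-06) in labelled Btg4-/-, and Psma1, given for the same reason, had 133 and 103 FPKM in Cnot6l-/-, 169.8 and 94.5 FPKM in labelled Btg4-/- and 22.7 and 23.4 FPKM in WT.

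In the 19S cap, Psmc2 had 14.9 and 9.06 FPKM in Cnot6l-/-, 4.42 and 4.09 FPKM in labelled Btg4-/- and 0.46 and 0.62 FPKM in WT at MII, and Psmc6 had 90.96 and 47.6 FPKM in Cnot6l-/-, 75.3 and 31.6 FPKM in labelled Btg4-/- and 12.3 and 7.21 FPKM in WT. Psmc6, which was not called at MI, now differed by 2.68 ± 0.56 (SE; limma adjusted p = 0.000886) in Cnot6l-/- and 2.25 ± 0.56 (SE; limma adjusted p = 0.00538) in labelled Btg4-/-. The call in labelled Btg4-/- was lost without its MII library 1 (adjusted p = 0.107) and without WT MII library 2 (adjusted p = 0.0656). Psmd4 had 56.0 and 55.7 FPKM in Cnot6l-/-, 28.8 and 30.2 FPKM in labelled Btg4-/- and 15.5 and 20.4 FPKM in WT, with 1.595 ± 0.27 (SE; limma adjusted p = 0.000158) in Cnot6l-/- and 0.70 ± 0.27 (SE; limma adjusted p = 0.067) in labelled Btg4-/-. Psmd1 had 26.9 and 15.2 FPKM in Cnot6l-/-, 21.9 and 14.0 FPKM in labelled Btg4-/- and 24.1 and 16.9 FPKM in WT, Psmd3 had 9.28 and 12.9 FPKM in Cnot6l-/-, 10.1 and 11.6 FPKM in labelled Btg4-/- and 8.69 and 11.8 FPKM in WT and Psmd11 had 44.1 and 38.9 FPKM in Cnot6l-/-, 45.1 and 33.8 FPKM in labelled Btg4-/- and 28.3 and 22.8 FPKM in WT. The genotypes of Psmd1 and Psmd3 overlapped. The deubiquitinase Psmd14 had 11.4 and 5.16 FPKM in Cnot6l-/-, 20.8 and 10.1 FPKM in labelled Btg4-/- and 0.89 and 0.69 FPKM in WT, with 2.29 ± 0.47 (SE; limma adjusted p = 0.000785) in Cnot6l-/- and 3.12 ± 0.47 (SE; limma adjusted p = 9.47e-05) in labelled Btg4-/-. Psmd6 had 29.4 and 18.5 FPKM in Cnot6l-/-, 11.4 and 6.94 FPKM in labelled Btg4-/- and 2.61 and 1.43 FPKM in WT. Psmd10 had 24.2 and 12.9 FPKM in Cnot6l-/-, 28.4 and 16.5 FPKM in labelled Btg4-/- and 1.80 and 1.43 FPKM in WT, and Psmd9 had 16.1 and 9.26 FPKM in Cnot6l-/-, 13.7 and 9.69 FPKM in labelled Btg4-/- and 12.2 and 7.48 FPKM in WT, of which Psmd10 alone was separated from WT in both knockouts. Psmc3ip had 9.18 and 5.19 FPKM in Cnot6l-/-, 12.03 and 7.61 FPKM in labelled Btg4-/- and 0.13 and 0.04 FPKM in WT, and Psmb11 had 0.18 and 0.08 FPKM in Cnot6l-/-, 0.10 and 0.06 FPKM in labelled Btg4-/- and 0.01 and 0.01 FPKM in WT.

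In Cnot6l-/- the fall went on into the zygote. There 23 of 36 members were lower in zygotes than in MII eggs and 0 higher, where 28.7% of all genes tested were lower and 0.0735% higher, with a median of -1.24 for members and -0.46 for all genes. The count was 15 without Cnot6l-/- MII library 1, and after scaling 17 of 35 were lower and 0 higher, against 18.1% lower and 1.59% higher among all genes tested. In labelled Btg4-/- the limma test called 0 of 36, with 6 at an unadjusted p under 0.05, where 0.248% of all genes tested were higher and 1.07% lower. The median was 0.01 for members and -0.14 for all genes. After scaling 3 members, Psmb1, Psmc1 and Psmc2, were higher in these zygotes and 0 lower, against 2.15% higher and 1.36% lower among all genes tested. This step was not compared between genotypes by an interaction test.

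Against WT zygotes, 11 of 36 members were higher in Cnot6l-/- zygotes and 0 lower, where 8.00% of all genes tested were higher and 0.413% lower. The median was 0.64 for members and 0.18 for all genes. After scaling the counts became 6 higher and 4 lower of 35, against 8.00% higher and 7.91% lower among all genes tested. The lower ones were Psmc2, Psmc5, Psmd6 and Psmd9. The count as deposited was 5 without WT zygote library 2 and 3 without Cnot6l-/- zygote library 2. In labelled Btg4-/- zygotes 29 of 36 were higher than in WT zygotes and 0 lower, where 21.5% of all genes tested were higher and 0.0459% lower, with a median of 1.76 for members and 0.38 for all genes. After scaling 20 of 35 were higher and 0 lower, against 11.7% higher and 3.04% lower among all genes tested. The count as deposited was 19 without labelled Btg4-/- zygote library 1, and 3 when only these 4 libraries were fitted. The refit counts here lack their shares of all genes and are not read as particular to the members. Members made up 1.02 ± 0.004% of all FPKM in Cnot6l-/-, 1.36 ± 0.11% in labelled Btg4-/- and 0.62 ± 0.11% in WT zygotes (SD, n = 2 each).

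Psmb7 had 2.52 and 3.03 FPKM in Cnot6l-/-, 115 and 70.6 FPKM in labelled Btg4-/- and 4.95 and 1.43 FPKM in WT zygotes, with differences from WT of -0.01 ± 0.41 (SE; limma adjusted p = 1) in Cnot6l-/- and 4.58 ± 0.41 (SE; limma adjusted p = 1.22e-06) in labelled Btg4-/-. Psmb1 had 11.2 and 14.1 FPKM in Cnot6l-/-, 167 and 77.7 FPKM in labelled Btg4-/- and 4.12 and 2.62 FPKM in WT zygotes, with 1.66 ± 0.33 (SE; limma adjusted p = 0.00375) in Cnot6l-/- and 4.74 ± 0.33 (SE; limma adjusted p = 9.57e-08) in labelled Btg4-/-. In both genes labelled Btg4-/- stood far above the other genotypes. The call of Psmb1 in Cnot6l-/- was lost without Cnot6l-/- library 2 (adjusted p = 0.0561) and without WT library 2 (adjusted p = 0.0526). Psmb5 had 2.57 and 3.46 FPKM in Cnot6l-/-, 3.66 and 2.53 FPKM in labelled Btg4-/- and 0.74 and 1.07 FPKM in WT, with all zygotes low, and Psmb6 had 23.8 and 40.5 FPKM in Cnot6l-/-, 61.1 and 39.7 FPKM in labelled Btg4-/- and 16.1 and 13.3 FPKM in WT. Psmb3 had 39.0 and 53.7 FPKM in Cnot6l-/-, 77.0 and 52.8 FPKM in labelled Btg4-/- and 28.9 and 18.9 FPKM in WT, and Psmb11 had 0.02 and 0.03 FPKM in Cnot6l-/-, 0.06 and 0.05 FPKM in labelled Btg4-/- and 0.11 and 0.03 FPKM in WT. The catalytic genes thus stood between 0.74 FPKM and 115 FPKM in zygotes.

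Psma2 had 343 and 551 FPKM in Cnot6l-/-, 716 and 326 FPKM in labelled Btg4-/- and 133 and 56.2 FPKM in WT zygotes, with differences of 2.31 ± 0.43 (SE; limma adjusted p = 0.0025) in Cnot6l-/- and 2.47 ± 0.43 (SE; limma adjusted p = 0.000545) in labelled Btg4-/-. It was high in both knockouts, although without Cnot6l-/- zygote library 2 the adjusted p in Cnot6l-/- was 0.0539. Psma6 had 7.77 and 7.45 FPKM in Cnot6l-/-, 34.8 and 14.5 FPKM in labelled Btg4-/- and 14.3 and 3.19 FPKM in WT, overlapping between Cnot6l-/- and WT, and Psma3 had 4.47 and 3.61 FPKM in Cnot6l-/-, 12.4 and 3.09 FPKM in labelled Btg4-/- and 6.66 and 1.89 FPKM in WT. Psmc2 had 1.37 and 2.19 FPKM in Cnot6l-/-, 13.5 and 8.69 FPKM in labelled Btg4-/- and 4.74 and 2.37 FPKM in WT, with both Cnot6l-/- libraries below both of WT, a difference of -0.68 ± 0.31 (SE) that was not called as deposited. Psmc6 had 42.0 and 40.6 FPKM in Cnot6l-/-, 69.8 and 20.4 FPKM in labelled Btg4-/- and 10.4 and 3.65 FPKM in WT, with 2.54 ± 0.56 (SE; limma adjusted p = 0.00784) in Cnot6l-/- and 2.42 ± 0.56 (SE; limma adjusted p = 0.00464) in labelled Btg4-/-. It was the sole ATPase called in Cnot6l-/- zygotes. Its call there was lost without Cnot6l-/- library 2 (adjusted p = 0.0689) and without WT library 2 (adjusted p = 0.12). The call in labelled Btg4-/- zygotes was lost without their library 1 (adjusted p = 0.118) and without WT library 2 (adjusted p = 0.0937). After scaling Psmc2 was lower than WT in Cnot6l-/- zygotes, at -1.35 (adjusted p = 0.00181).

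Among the other cap genes in zygotes, Psmd14 had 1.62 and 0.85 FPKM in Cnot6l-/-, 31.9 and 10.6 FPKM in labelled Btg4-/- and 1.62 and 0.59 FPKM in WT, Psmd6 had 3.36 and 3.54 FPKM in Cnot6l-/-, 23.4 and 9.39 FPKM in labelled Btg4-/- and 8.84 and 3.07 FPKM in WT and Psmd4 had 19.7 and 36.3 FPKM in Cnot6l-/-, 41.7 and 39.6 FPKM in labelled Btg4-/- and 18.1 and 15.3 FPKM in WT. In Psmd14, Psmd6 and Psmd4 both labelled Btg4-/- libraries were above both WT libraries. Psmd1 had 13.5 and 14.6 FPKM in Cnot6l-/-, 15.0 and 9.49 FPKM in labelled Btg4-/- and 8.57 and 8.95 FPKM in WT, Psmd3 had 3.43 and 9.72 FPKM in Cnot6l-/-, 3.50 and 7.21 FPKM in labelled Btg4-/- and 3.42 and 7.24 FPKM in WT and Psmd11 had 26.2 and 40.9 FPKM in Cnot6l-/-, 29.1 and 22.8 FPKM in labelled Btg4-/- and 16.02 and 13.1 FPKM in WT. For Psmd3 the genotypes overlapped. Psmd9 had 5.39 and 4.97 FPKM in Cnot6l-/-, 15.0 and 10.6 FPKM in labelled Btg4-/- and 7.11 and 6.52 FPKM in WT, Psmd10 had 7.35 and 6.81 FPKM in Cnot6l-/-, 34.8 and 11.9 FPKM in labelled Btg4-/- and 7.50 and 1.36 FPKM in WT and Psmc3ip had 0.53 and 0.53 FPKM in Cnot6l-/-, 13.5 and 9.97 FPKM in labelled Btg4-/- and 0.36 and 0.34 FPKM in WT. The assembly factor Psmd9 was lowest in Cnot6l-/-.

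The knockouts were also set against each other. At MI they differed in few members: 3 of 36 were lower in Cnot6l-/- than in labelled Btg4-/- and 0 higher, where 3.59% of all genes tested were higher and 6.46% lower. These were Psmd9, -1.27 ± 0.30 (SE; limma adjusted p = 0.0091), Psmc3ip, -0.86 ± 0.25 (SE; limma adjusted p = 0.036), and Psmb11. Psmb11 passed the filter through the MI oocytes labelled Btg4-/- alone, so that its call against them is no result. After scaling Psmd9 alone of 35 was called, against 4.69% higher and 2.86% lower among all genes tested. Without one or the other Cnot6l-/- library Psmd9 had an adjusted p of 0.0537 and 0.0818, and without one or the other labelled Btg4-/- library of 0.0536 and 0.0786. Psmc3ip also lost its call without any 1 of the 4. The count was 0 or 1 without one or the other Cnot6l-/- MI library and 1 without one of the labelled Btg4-/- MI libraries. With only these 4 libraries fitted it was 21.

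At MII 8 of 36 members were higher in Cnot6l-/- and 0 lower, where 11.0% of all genes tested were higher and 1.77% lower. They held 4 of the 6 ATPases, Psmc2, 1.27 ± 0.31 (SE; limma adjusted p = 0.01), Psmc3, 0.96 ± 0.28 (SE; limma adjusted p = 0.0289), Psmc4, 1.64 ± 0.29 (SE; limma adjusted p = 0.00112), and Psmc5, 1.03 ± 0.27 (SE; limma adjusted p = 0.0163). The others were the beta subunits Psmb5, 2.96 ± 0.25 (SE; limma adjusted p = 9.03e-07), and Psmb4, 1.83 ± 0.30 (SE; limma adjusted p = 0.000648), the receptor Psmd4, 0.90 ± 0.27 (SE; limma adjusted p = 0.0384), and the lid gene Psmd13, 1.24 ± 0.22 (SE; limma adjusted p = 0.000955). Psmc4 had 21 and 22.4 FPKM in Cnot6l-/- MII eggs, against 6.66 and 5.91 FPKM in labelled Btg4-/- MII eggs, and Psmb4 had 31.6 and 33.7 FPKM, against 8.49 and 8.45 FPKM. Libraries did not overlap in either. After scaling 8 of 35 were higher and 2, Psma4 and Psmb1, lower, against 13.9% higher and 4.27% lower among all genes tested. Leaving out any 1 of the 4 libraries left 4 or 5 of the calls: 4 without Cnot6l-/- library 1, 5 without its library 2, 5 without labelled Btg4-/- library 1 and 4 without its library 2. With only these 4 libraries fitted it was 1. Psmc3, Psmc5 and Psmd4 lost their calls without any 1 of the 4 libraries, and Psmc2 without Cnot6l-/- library 1 (adjusted p = 0.158) or labelled Btg4-/- library 2 (adjusted p = 0.0728). After scaling Psmc3 and Psmd4 were not called (adjusted p = 0.0931 and 0.0689). Psmb4, Psmc3, Psmc4, Psmc5 and Psmd13 are named because they were called, after their values were seen.

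In zygotes the direction was the other way, in a comparison added after the values were seen. Of 36 members 14 were lower in Cnot6l-/- than in labelled Btg4-/- and 0 higher, where 12.8% of all genes tested were lower and 1.71% higher. They included 2 alpha-ring genes, Psma4 and Psma7, 3 beta-ring genes, Psmb1, Psmb2 and Psmb7, the ATPases Psmc1, Psmc2, Psmc3 and Psmc5, the lid genes Psmd6, Psmd8 and Psmd14, the assembly factor Psmd9, and Psmc3ip. The widest difference was that of Psmb7, -4.595 ± 0.41 (SE; limma adjusted p = 1.26e-06), followed by Psmd14, -3.15 ± 0.47 (SE; limma adjusted p = 0.00025), Psmb1, -3.08 ± 0.33 (SE; limma adjusted p = 1.15e-05), and Psmc3ip, -3.04 ± 0.25 (SE; limma adjusted p = 5.16e-07). After scaling 16 of 35 were lower and 0 higher, against 17.0% lower and 7.31% higher among all genes tested. The count was 8 without Cnot6l-/- zygote library 1 and 9 without labelled Btg4-/- zygote library 1, and 7 with only these 4 libraries fitted. These refit counts are given without their shares of all genes and are not read as particular to the members. Psmc2, Psmc3 and Psmc5 were thus higher in Cnot6l-/- at MII and lower in zygotes. Whether the change between these stages differed was not tested.

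**Figure D5:**
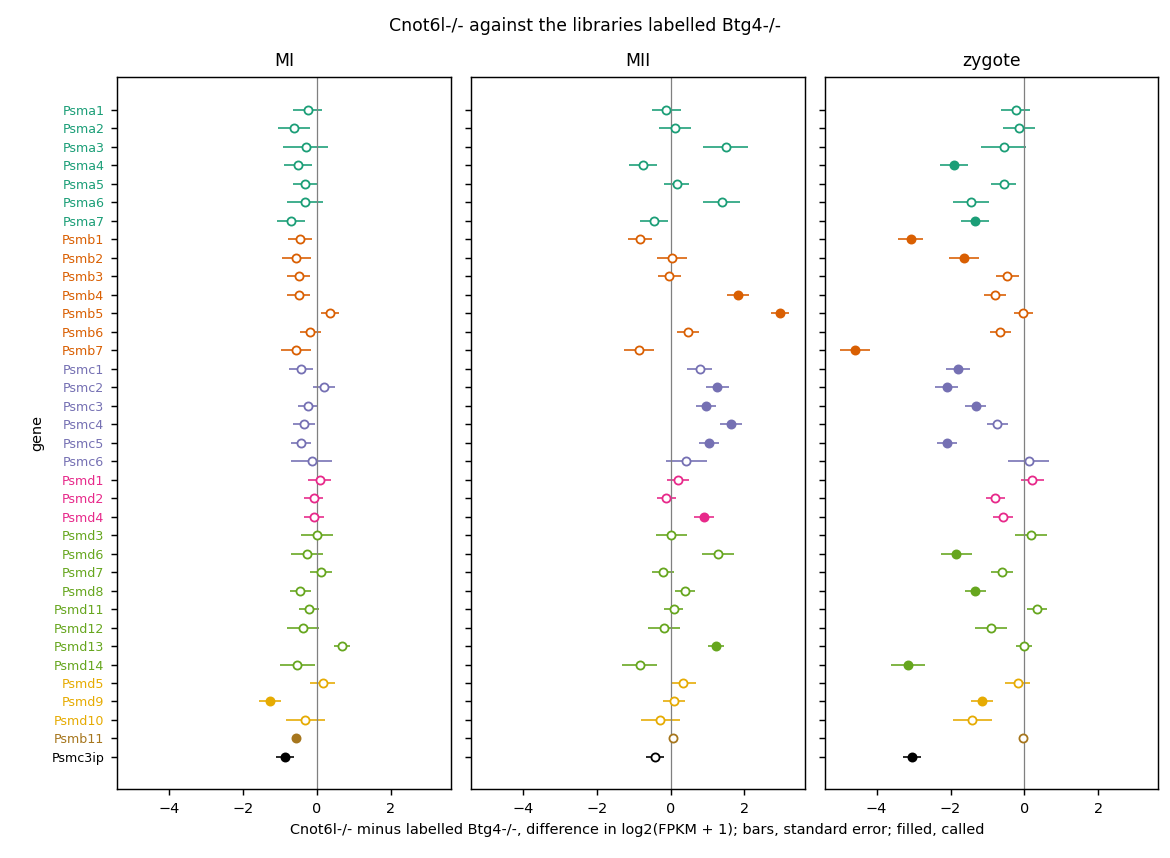
Difference in log2(FPKM + 1), Cnot6l-/- minus labelled Btg4-/-, for the 36 members tested at MI, MII and in zygotes, with genes down the page, bars for the standard error and filled points for those called at an adjusted p under 0.05. Filled points lie right of 0 at MII (8 genes) and left of 0 in zygotes (14 genes), and 3 are filled at MI, of which Psmb11 was tested through its level in labelled Btg4-/- alone.

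Other genes of the pathway were counted in the same comparisons. Among all genes tested, 65.1% were lower and 0.753% higher in WT at MI than at GV, and after scaling 30.5% and 15.2%. Against WT at MI, 60.3% were higher in Cnot6l-/- and 68.7% in labelled Btg4-/-. After scaling these shares were 35.8% and 32.5%, with 11.0% and 9.82% lower. Of the 5 chaperones that assemble the 20S core, all 5 were lower in WT at MI than at GV, from -4.48 ± 0.37 (SE; limma adjusted p = 2.15e-08) for Psmg4 to -1.55 ± 0.22 (SE; limma adjusted p = 1.1e-05) for Psmg2, and all 5 were higher at MI than in WT in each knockout. After scaling 5 were lower in WT, and 2 higher in each knockout. Psmg4 had 69.3 and 65.0 FPKM in Cnot6l-/-, 95.4 and 109 FPKM in labelled Btg4-/- and 6.51 and 4.66 FPKM in WT MI oocytes. Of 5 genes for activators of the core and its inhibitor, 4 were lower in WT at MI, from -3.96 ± 0.24 (SE; limma adjusted p = 1.35e-09) for the 11S subunit Psme2 to -0.78 for the activator Psme4, the gene not called. Of these, 3 were higher than WT in each knockout at MI. Psme2 had 13.1 and 13.8 FPKM in Cnot6l-/-, 11.8 and 15.7 FPKM in labelled Btg4-/- and 0.71 and 0.79 FPKM in WT MI oocytes.

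Of 9 genes for cap subunits with other names and for factors bound to the cap, 7 were lower in WT at MI, from -3.16 ± 0.57 (SE; limma adjusted p = 0.000127) for the deubiquitinase Uchl5 to -0.44 for Zfand2a, not called. At MI 6 of the 9 were higher than WT in Cnot6l-/- and 7 in labelled Btg4-/-, against 60.3% and 68.7% of all genes tested. After scaling 2 of the 9 were higher and 1 lower in each knockout. Of 5 genes for ubiquitin and its activating enzymes, 4 were lower in WT at MI, from -5.06 ± 0.32 (SE; limma adjusted p = 1.67e-09) for Rps27a, which encodes ubiquitin fused to a ribosomal protein, to -0.21 for the activating enzyme gene Uba6, not called. Rps27a had 137 and 134 FPKM in Cnot6l-/-, 182 and 205 FPKM in labelled Btg4-/- and 10.8 and 8.51 FPKM in WT MI oocytes. Of these 5 genes, 3 were higher than WT in each knockout, and 1 in each after scaling.

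Among all genes tested 65.1% were lower and 0.753% higher in WT at MI. Of 9 genes for shuttles that carry ubiquitinated proteins and for the p97 system that extracts them, 4 were lower and 1 higher. They ran from -1.96 ± 0.34 (SE; limma adjusted p = 9.21e-05) for the shuttle Rad23b to 2.28 ± 0.40 (SE; limma adjusted p = 0.000101) for the protease Ddi2. Ddi2, which activates the proteasome gene regulator Nfe2l1, had 27.2 and 18.6 FPKM in WT MI oocytes, against 2.44 and 5.75 FPKM in WT GV oocytes. It was the sole gene of these lists that rose in WT as deposited. Against WT at MI, 4 of the 9 were higher in Cnot6l-/- and 5 in labelled Btg4-/-, with 60.3% and 68.7% among all genes. Of 7 regulators tested, 4 were lower in WT at MI, from -2.23 ± 0.44 (SE; limma adjusted p = 0.000312) for Nfyb to -0.20 for Nfya, not called. Of these, 4 were higher than WT in Cnot6l-/- and 5 in labelled Btg4-/- at MI. The counts of lower shuttle genes and lower regulators in WT did not exceed the share of all genes. Counts near or below the background shares given above for all genes say nothing particular to these lists.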

How the data were processed

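RNA had been sequenced from mouse oocytes and zygotes in 24 libraries, 2 per group, made by Smart-Seq2 with Tn5 tagmentation, per the labels' protocols. The values used are FPKM from 1 table deposited by the authors for all libraries. CASAVA 1.8, TopHat2 2.0.11, Bowtie2 2.1.0, Cufflinks 2.2.1 and the build mm9 are named in the submitters' processing notes, which give no order of use. The scaling between libraries is not stated there. A gene in this table has no count, so the depth is unknown and no counting interval is given, and the precision rests on 2 libraries per group.

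Of 23235 genes, the 10884 that averaged 1 FPKM or more in some group were tested with limma 3.58.1 (R 4.3.3) on log2(FPKM + 1), with 12 group means, a mean-variance trend and 12 residual degrees of freedom. All tests were two-sided, with Benjamini-Hochberg adjustment over all genes tested. The fits were also run on simulated data, with noise drawn independently for each library. The simulated libraries held no deviations shared by number and no shift of all genes between groups, so this run does not bear on either. Named genes were, in each role, those with the lowest and highest WT change from GV to MII, the catalytic Psmb5, Psmb6 and Psmb7, Psmd14, Psmc3ip, any member called at GV, and the 3 highest and 3 lowest interactions between GV and MI in each knockout. Psma1 and Psma5, named for their sequence, Psma7, Psmd2, and the genes called between the knockouts were added after their values were seen, as was the comparison of the knockouts in zygotes. The members, lists and tests were chosen with earlier results of these data known. The alternatives tried were median-ratio scaling, a pseudocount of 0.1, all genes without filter, a fit of only the libraries compared, a replicate block and leaving out each library. Single-library files were not used here. The 3' UTRs came from GENCODE vM1 and the mm9 genome. A gene of the ubiquitin list is not reported here, and the list was counted without it.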

Additional observations from a re-analysis of the deposited data

Results flagged for a closer look

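The change from GV differed between knockout and WT by the interaction test itself in the comparisons that follow. From GV to MI it differed in 27 of 36 members in Cnot6l-/-, where 44.4% of all genes tested were higher and 0.459% lower. Psma6 was at 4.09, Psmc2 at 3.96 and Psmb1 at 3.90 on the log2 scale. In the libraries labelled Btg4-/- it differed in 29 members, where 45.4% of all genes tested were higher and 0.175% lower. Psma6 was at 5.12, Psmb1 at 4.54 and Psma3 at 4.14 there. Psmb11, among both the 27 and the 29, passed the filter through the MI oocytes labelled Btg4-/- alone. From GV to MII it differed in 26 members in Cnot6l-/- and in 19 in the libraries labelled Btg4-/-. Among all genes tested 24.1% and 13.3% were higher, and 0.717% and 0.579% lower, in the same order. All of these members' interactions were positive as deposited, and no explanation was tested. After scaling 20 and 22 of 35 members were positive from GV to MI in Cnot6l-/- and labelled Btg4-/-, and 1 negative in each. Among all genes tested 18.7% and 18.2% were then higher, and 2.52% and 4.72% lower. From GV to MII 18 and 17 of 35 were positive after scaling and 0 negative. Among all genes tested 15.0% and 12.4% were then higher, and 0.733% and 2.38% lower.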

How the results depend on the processing

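Counts of members called were recomputed under each alternative. Except for scaling, the shares of all genes called are not given beside them. A shift in these counts is therefore not read as particular to the members. After median-ratio scaling the count was 14 for WT zygotes against MII eggs, 3 for this step in labelled Btg4-/- and 1 for Cnot6l-/- against labelled Btg4-/- at MI, and the other 22 counts stayed within 1.5 times with higher and lower calls added. By direction, Cnot6l-/- MII against MI then had 11 lower and 7 higher, where 26 and 0 were found as deposited, labelled Btg4-/- MII against MI 17 and 7, where 26 and 0 were found, and Cnot6l-/- zygotes against WT 6 higher and 4 lower, where 11 and 0 were found. With a pseudocount of 0.1 it was 2 for Cnot6l-/- MI against GV, 0 for labelled Btg4-/- MI against GV and 1 for the knockouts at MI. With no filter on low values it was 8 and 2 for the steps from GV to MI in Cnot6l-/- and labelled Btg4-/-, and 2 for WT zygotes against MII eggs. With only the libraries compared in the fit, it was 0 for WT zygotes against MII eggs, 29 and 0 for the steps from GV to MI in Cnot6l-/- and labelled Btg4-/-, 5 and 3 for Cnot6l-/- and labelled Btg4-/- against WT in zygotes, and 21, 1 and 7 for Cnot6l-/- against labelled Btg4-/- at MI, MII and in zygotes. The cause of these shifts was not tested.

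Leaving out 1 library at a time gave 0 to 5 for WT zygotes against MII eggs, 0 to 6 for Cnot6l-/- MI against GV, 17 to 27 for Cnot6l-/- MII against MI and 15 to 24 for Cnot6l-/- zygotes against MII eggs. It gave 0 to 1 for labelled Btg4-/- MI against GV, 3 to 14 and 19 to 30 for Cnot6l-/- and labelled Btg4-/- against WT in zygotes, and 11 to 19 for the labelled Btg4-/- interaction from GV to MII. Cnot6l-/- against labelled Btg4-/- gave 0 to 2 at MI, 4 to 5 at MII and 8 to 18 in zygotes. Where this leaves a group with 1 library, that library is assumed to vary like the others.

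Some values of named genes changed sign. After scaling, WT MI against GV was 0.63 for Psmd11, 0.37 for Psme4, 0.62 for Zfand2a, 0.54 for Uba6 and 0.92 for Nfya, WT MII against MI was 0.26 for Psmb6, and WT MII against GV was 0.96 for Psmd3. Against WT at MI, Cnot6l-/- was -0.18 for Psmb3, -0.14 for Psmc6 and -0.58 for Psmd3, and labelled Btg4-/- was -0.70 for Psma2, -0.28 for Psmc6, -1.03 for Psmd11 and -0.85 for Psmd3. Against WT at MII, Psmb3 was -0.41 in Cnot6l-/- and -0.26 in labelled Btg4-/-. The interactions from GV to MI were -0.97 for Psma2 and -0.89 for Psmd1 in Cnot6l-/-, and -1.02 for Psmd1 and -0.79 for Psmd11 in labelled Btg4-/-. With the pseudocount of 0.1, Psmb7 in Cnot6l-/- zygotes against WT was 0.043. Leaving out libraries gave signs of both kinds for WT MI against GV in Nfya, -0.42 to 0.014, Uba6, -0.69 to 0.27, and Psmd1, -0.18 to 0.33. For Cnot6l-/- against WT at MI it did so in Psma2, -0.34 to 0.13, Psmd1, -0.27 to 0.24, and Psmd11, -0.24 to 0.13, and in zygotes in Psmb7, -0.66 to 0.63. For labelled Btg4-/- at MI it did so in Psmd1, -0.35 to 0.16, and Psmd11, -0.029 to 0.34. For the interactions it did so in Psma2, -0.25 to 0.33, Psmd1, -0.16 to 0.35, and Psmd11, -0.34 to 0.033, in Cnot6l-/-, and in Psmd1, -0.13 to 0.38, and Psmd3, -0.37 to 0.16, in labelled Btg4-/-.

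The replicate numbers were shared by the groups. Deviations of same-numbered libraries correlated between -0.307 and 0.706 over 36 pairs of GV, MII and zygote groups (median 0.441). The 28 pairs without labelled Btg4-/- GV lay at 0.276 or above and the 8 with it at 0 or below, so same-numbered libraries of the other groups deviated together, although the labels name nothing that they share. A fit with the number as a replicate block moved 1 count by over 1.5 times, Cnot6l-/- against labelled Btg4-/- at MI, to 6. Under the block Psmc6 was called as higher than WT at MI in Cnot6l-/- (limma adjusted p = 0.000903) and in labelled Btg4-/- (adjusted p = 7.91e-05), as it was with only the libraries compared (adjusted p = 0.00241 and 0.000379), and Psmd3 as lower in WT MII eggs than at GV (adjusted p = 0.0329). Psmb1 in WT zygotes against MII eggs (adjusted p = 0.0657) and Psmd4 between the knockouts at MII (adjusted p = 0.0654) lost their calls. No paired analysis was possible for comparisons of MI with another stage, because the MI columns carry other numbers, which the 3 genotypes share and which were not checked for pairing. With no counts, depth limits cannot be given, and 2 libraries per group limit every value.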
